A study of Mus musculus with 39 samples.

Results

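In embryonic mouse cortex, 807 of 20809 nuclear consensus regions of Notch and RBPJ binding were named in 3 or 4 of the study's 4 peak lists, which is 3.88% of the regions. These regions were selected on the peak calls themselves, as the rows of the consensus file whose name holds at least 3 source lists, so the calls are given as a description with no test. Of the 807 regions, 666 were named in 3 lists and 141 in all 4, the latter 0.678% of the consensus regions. Direct overlap of the deposited lists with the consensus regions, counted from 1 bp, gave 807 regions, and all 807 were shared with those taken by name. The 4 lists hold peaks of RBPJ and of Notch in radial glial cells (RGCs) and in intermediate progenitor cells (IPCs), and are called RGC RBPJ, RGC Notch, IPC RBPJ and IPC Notch.

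Binding was mapped by Targeted DamID, in which the bacterial methylase Dam is joined to a DNA-associated protein and marks GATC sequences close to where that protein sits. Wild-type cortex was electroporated in utero at E13.5 and collected at E14.5, with plasmids driven by the Hes5 promoter for RGCs and by the Tuba1a promoter for IPCs. Human RBPJ1 was the fusion in 3 RGC and 3 IPC samples. For Notch, 2 RGC samples carried mouse NICD, the intracellular domain, and 2 carried mouse NdECD, whereas all 4 IPC samples carried mouse NICD. The fusions of a cell type were compared with the same Dam-only samples, 5 for RGCs and 4 for IPCs, so both lists of one cell type rest on shared controls. All fusions were expressed from plasmids on top of the endogenous proteins. The paper states that Notch1 expression is low in IPCs, and it treats Notch binding there as that of ectopically expressed protein. A further 16 of the 39 samples were not analysed here.

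RBPJ is the DNA-binding protein of the Notch pathway. After a ligand binds Notch on the cell surface, its intracellular domain is released, enters the nucleus and joins RBPJ and a Mastermind coactivator on DNA, where genes such as Hes1 are switched on. Without Notch, RBPJ can hold target genes off with corepressors. In the developing cortex Notch signalling keeps RGCs, the neural stem cells of the tissue, from differentiating, and it falls as they give rise to IPCs, which divide to make neurons. RBPJ recognises the word TTCCCA, and a pair of such words in head-to-head orientation can hold 2 Notch complexes side by side.

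Head-to-head words are shown first, since they are the sequence form in which a Notch complex can dimerise and a small number of the regions hold one. A pair was defined as TGNGAA, 15 to 17 further bases, and TTCNCA, which reads alike on both strands. In the 141 regions named in all 4 lists there were 9 such pairs, of which 6 lay in bases covered by peaks of all 4 lists. The windows below are 60 bases of GRCm38 (mm10), printed 5′ to 3′ on the strand of the nearest gene, with the words of the pair in capitals. Of the 9 pairs, 6 are shown and the others were left out by rules on what is printed, and all were picked after their values were seen.
Hes1, chr16:30065244-30065303, plus strand: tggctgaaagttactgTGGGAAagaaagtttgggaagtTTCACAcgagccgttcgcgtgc
Nrarp, chr2:25177798-25177857, plus strand: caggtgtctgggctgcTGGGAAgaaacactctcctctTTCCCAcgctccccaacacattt
Mycn, chr12:12684136-12684195, minus strand: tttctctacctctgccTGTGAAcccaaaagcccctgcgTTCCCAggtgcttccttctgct
Zbtb20, chr16:43341709-43341768, plus strand: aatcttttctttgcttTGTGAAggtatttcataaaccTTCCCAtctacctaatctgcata
Stk39, chr2:68406614-68406673, minus strand: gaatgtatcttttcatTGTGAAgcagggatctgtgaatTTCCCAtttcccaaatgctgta
Usp25, chr16:77291805-77291864, plus strand: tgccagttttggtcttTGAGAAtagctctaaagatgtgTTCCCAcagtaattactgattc

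The pair at Hes1, a repressor of neurogenesis and the textbook Notch target, was centred 66 bases upstream of an annotated start site of the gene. It lay under peaks of RGC RBPJ, RGC Notch and IPC RBPJ, while the IPC Notch peak of the region began downstream of it. The pair at Nrarp, a feedback inhibitor of Notch signalling, was centred 2931 bases upstream of the start site, in bases covered by all 4 lists. It was the only one of the 9 pairs with both words in the full form TGGGAA and TTCCCA, and such words also enter the TTCCCA counts given further on. The pair near Mycn, a proto-oncogene of progenitor growth, was 256450 bases downstream of the start site and was covered by all 4 lists. The pairs at Zbtb20, a transcription factor of cortical progenitors, and at Stk39, a kinase, lay inside those genes' bodies and were also covered by all 4 lists. The pair nearest Usp25 lay 207934 bases downstream of the start site, outside any protein-coding gene, and under peaks of all lists but IPC RBPJ.

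In the 666 regions named in 3 lists there were 16 pairs in 15 regions, and 3 of these had both words in the full form. They are shown for comparison with Nrarp, and were likewise picked after their values were seen.
Gli3, chr13:15618628-15618687, plus strand: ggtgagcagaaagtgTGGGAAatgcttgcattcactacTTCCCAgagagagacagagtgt
Gas1, chr13:60044460-60044519, minus strand: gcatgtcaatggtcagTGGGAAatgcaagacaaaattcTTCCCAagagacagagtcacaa
Lrig1, chr6:94774256-94774315, minus strand: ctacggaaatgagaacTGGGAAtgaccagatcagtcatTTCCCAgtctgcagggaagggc

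Gli3 encodes the main repressor of Hedgehog targets in the cortex, Gas1 a Hedgehog co-receptor and Lrig1 a receptor-regulating membrane protein. Each of these 3 pairs was covered by the RGC RBPJ and RGC Notch peaks of its region, and by no IPC peak. Per Mb of sequence, the 4-list regions held 13.1 pairs (95% Poisson interval 6.01 to 24.9), against 5.87 (3.35 to 9.53) in 3-list regions, 6.69 (5.10 to 8.61) in 2-list regions and 7.41 (6.53 to 8.39) in 1-list regions. These intervals overlap. In windows of 2000 bp about the midpoint of each region, which removes differences in width, 7 of 141 4-list regions held a pair, 4.96% (Wilson 95% interval 2.43 to 9.89), against 229 of 17254 1-list regions, 1.33% (1.17 to 1.51). Among 3-list regions the share in such windows was 7 of 666, 1.05% (0.510 to 2.15), below that of the 4-list regions. For the 807 together it was 14 regions, 1.73% (1.04 to 2.89), beside 1.37% over all consensus regions. Pairs with both words in the full form fell in such windows in 0 of the 807 and in 37 of all 20809 regions. A match is a word in the sequence and was not tested for binding, and no p-value was made from regions, which are not replicates.

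Of the 666 regions named in 3 lists, 238 lacked IPC RBPJ, 217 lacked RGC Notch, 194 lacked IPC Notch and 17 lacked RGC RBPJ. The 3 frequent patterns were thus of similar size, and RGC RBPJ was rarely the list that was missing. A list is missing where none of its peaks passed the authors' stringent FDR cut in every pairing of fusion and Dam-only sample. Such a missing call does not show absence of binding, which was not tested. Over all consensus regions the lists differed widely in size, with RGC RBPJ called in 67.6%, IPC RBPJ in 26.2%, RGC Notch in 17.7% and IPC Notch in 10.1%. Among the 807 regions RGC RBPJ was called in 97.9%, IPC Notch in 76.0%, RGC Notch in 73.1% and IPC RBPJ in 70.5%, which follows in part from the requirement of 3 lists. As a share of each list, 29.2% of the consensus regions with an IPC Notch call were among the 807, 16.0% of those with RGC Notch, 10.4% of those with IPC RBPJ and 5.61% of those with RGC RBPJ.

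**Figure D1:**
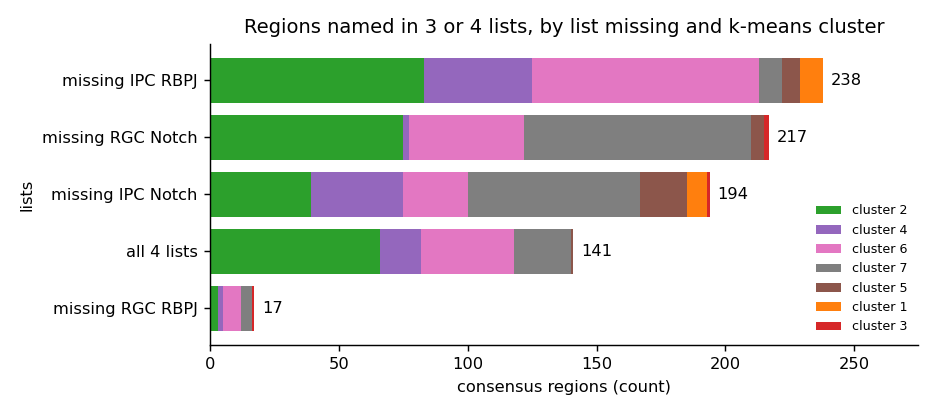
Count of consensus regions (horizontal axis) for each pattern of lists (vertical axis), with segments coloured by the authors' k-means cluster. The patterns missing IPC RBPJ, RGC Notch and IPC Notch hold 238, 217 and 194 regions, whereas 17 regions miss RGC RBPJ.

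The authors' k-means clusters, made from binding intensities that are not in the files used here, were unevenly filled. Clusters 2, 6, 7 and 4 held 93.6% of the 807 regions, against 36.3% of all consensus regions, and cluster 8 held none. The clusters were built from the same binding data as the lists and add no independent evidence. Within the patterns, regions lacking RGC Notch were in cluster 7 in 40.6% of cases and in cluster 4 in 0.922%. Regions lacking IPC RBPJ were in cluster 6 in 37.0% and in cluster 7 in 3.78%. Cluster 2 took 46.8% of the 4-list regions. Regions lacking IPC Notch were in cluster 7 in 34.5%, in cluster 2 in 20.1% and in cluster 6 in 12.9%. The paper describes clusters 2, 6 and 7 as bound by both factors in both cell types, and cluster 4 as bound by both in RGCs. Cluster 4 held 18.6% of the regions lacking IPC Notch. These descriptions are of whole clusters, and whether signal of the missing list was present in a given region was not tested.

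Peaks of the missing list lay at distances that followed the length of the list. The nearest peak of the missing list was a median of 80363 bp away where RGC Notch was missing, 71588 bp where IPC RBPJ was missing and 181852.5 bp where IPC Notch was missing. Of the 666 regions, 51 (7.66%, interval 5.87 to 9.93) had a peak of the missing list within 5 kb and 320 (48.0%, 44.3 to 51.8) had none within 100 kb. For the 17 regions that lacked RGC RBPJ, the longest list, the median was 13385 bp and 6 had one within 5 kb. The widest of them lay at Trib2, a pseudokinase gene, near Hes5, a Notch-responsive repressor, and at Hdac9, a histone deacetylase gene.

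Being named in the same region did not mean that all peaks shared a base, because consensus regions were made by merging peaks that overlap in chains. A base common to all of the region's lists was found in 756 of the 807 regions, 93.7% (interval 91.8 to 95.2), in 629 of 666 with 3 lists and in 127 of 141 with 4 lists. The common bases spanned a median of 1152 bp in 3-list and 992 bp in 4-list regions, inside regions with median widths of 3611 bp and 4335 bp. Median widths were 1717 bp with 1 list and 2943.5 bp with 2, and merging more peaks widens a region by construction.

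In the 4-list regions the RGC peaks took up most of the region and the IPC peaks less. RGC RBPJ peaks covered a median of 94.0% of the region (quartiles 73.8 and 99.5) and RGC Notch peaks 84.7% (61.8 and 98.0), whereas IPC Notch peaks covered 45.7% and IPC RBPJ peaks 37.7% (23.4 and 50.8). Of the 141 regions, 77 had RGC RBPJ and 52 had RGC Notch as the list covering most bases. IPC Notch was split into several peaks in 20 of them. Wherever 2 lists were called in one of the 807 regions, their peaks usually overlapped directly, from 94.1% of 375 regions for IPC RBPJ with IPC Notch to 99.8% of 573 for RGC RBPJ with RGC Notch. Regions were made by merging peaks that overlap, so these high shares follow in part from that construction. The midpoints of the widest IPC RBPJ and IPC Notch peaks were closest, with a median offset of 312.5 bp, and those of RGC Notch and IPC RBPJ were farthest apart, at 645.5 bp. These offsets are not matched for peak width. In 4-list regions IPC RBPJ and IPC Notch peaks covered medians of 1503 and 1770 bp, against 3870 bp for RGC RBPJ and 3152 bp for RGC Notch. The longest common ranges in the 4-list regions were at chr16:77233359-77239991, 149 kb downstream of the start of Usp25, a ubiquitin protease gene, with 3025 bp, and at chr19:59460686-59471996 on Emx2, a cortical patterning factor, with 2761 bp. Long ranges were also found within the regions nearest Msi2, an RNA-binding protein of stem cells, with 2384 bp, and Gca, with 2339 bp. The range near Nuak2, a kinase gene, was 2247 bp. Those nearest Prrc1, Gm6133, Tmem161b and Tox3 were between 1977 and 2199 bp.

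Most of the regions did not hold a protein-coding start site. A start site lay inside 174 of the 807, 21.6% (interval 18.9 to 24.5), and the median distance to the nearest one was 28564 bp. Within 5 kb of a start site, counting those on one, were 240 regions, 29.7% (26.7 to 33.0), and 204, 25.3% (22.4 to 28.4), were over 100 kb from any. Over all consensus regions 16.6% held a start site, 31.1% were within 5 kb of one and 22.7% were over 100 kb from any. Among regions off a start site, 309 of 633, 48.8% (44.9 to 52.7), lay upstream of the nearest one, beside 45.6% over all consensus regions. The share on a start site was 14.8% (14.3 to 15.4) with 1 list, 25.8% (24.2 to 27.5) with 2, 22.2% (19.2 to 25.5) with 3 and 18.4% (12.9 to 25.6) with 4, so it did not climb with each added list. Median distances were 21788, 15114, 27204 and 34994 bp in the same order. These shares and distances are not matched for width, and shares within bands of width are given below. Midpoints in introns made up 46.7% (43.3 to 50.2) of the 807, and midpoints in exons 7.31%, close to the 47.3% and 8.05% over all consensus regions. Intergenic midpoints made up 41.0% of the 807 and 48.9% (40.8 to 57.1) of the 4-list regions, against 39.2% (38.5 to 39.9) of 1-list regions.

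**Figure D2:**
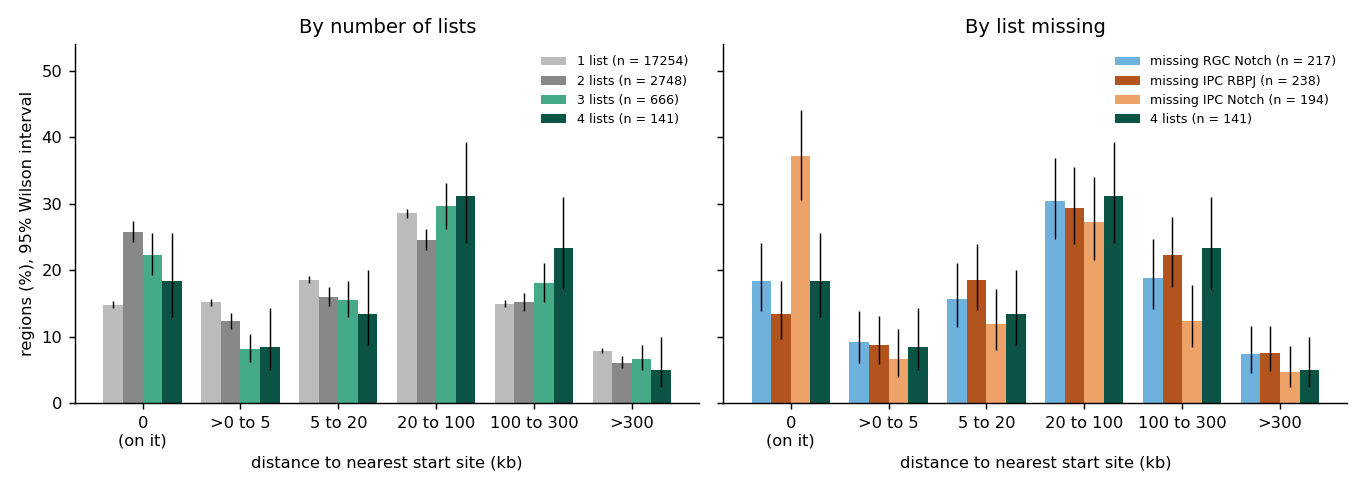
Share of regions (vertical axis, %, with Wilson 95% intervals for counting error) by distance to the nearest protein-coding start site (horizontal axis, kb), by number of lists on the left and by missing list on the right. Regions lacking IPC Notch sit on a start site in 37.1% of cases, above the 13.4 to 18.4% of the other patterns drawn.

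The pattern of lists separated the regions by distance more than their number did. Of the 194 regions lacking IPC Notch, 72 held a start site, 37.1% (interval 30.6 to 44.1). The shares were 32 of 238 where IPC RBPJ was missing, 13.4% (9.69 to 18.4), 40 of 217 where RGC Notch was missing, 18.4% (13.8 to 24.1), and 26 of 141 in all 4 lists, 18.4%. The interval of the first does not overlap the others. Median distances were 11038.5 bp without IPC Notch, 34833 bp without IPC RBPJ and 32189 bp without RGC Notch. Exonic midpoints made up 13.9% of the regions lacking IPC Notch against 4.61% and 5.88% of those lacking RGC Notch and IPC RBPJ. Where RGC RBPJ was missing, 4 of 17 regions held a start site.

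The CpG ratio, observed over expected from base composition, moved with this pattern. It exceeded 0.6 in 24 of the 194 regions lacking IPC Notch, 12.4% (8.46 to 17.7), and in 2.52% of those lacking IPC RBPJ and 3.69% of those lacking RGC Notch. For the 807 together the share was 5.58% (4.19 to 7.38), beside 6.37% over all consensus regions. GATC words, on which Dam acts, occurred 3.00 times per kb in the first of these, 3.09 in the second and 2.59 in the third. Neither measure's part in the difference was tested. Regions named in 2 lists, which the rule did not take, gave the same order: 27.6% of the 1043 with RGC RBPJ and RGC Notch were on a start site and 30.9% of the 873 with RGC RBPJ and IPC RBPJ, against 15.2% of the 532 with RGC RBPJ and IPC Notch.

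Wide regions reach a start site more easily, so shares were also read within bands of width. Between 2500 and 4000 bp, 27 of 74 regions lacking IPC Notch held a start site, 36.5% (26.4 to 47.9), against 29 of 210 of those with it, 13.8% (9.79 to 19.1). In the band up to 2500 bp from 1500 bp the shares were 9 of 19 and 6 of 93, and up to 1500 bp they were 1 of 4 and 3 of 38. From 4000 to 6000 bp they were 33.9% (23.1 to 46.6) and 21.8% (16.2 to 28.6), and above 6000 bp 39.5% (25.6 to 55.3) and 26.5% (18.9 to 35.8). In both of these wider bands the intervals overlap. In that widest band 38.5% (31.6 to 45.9) of 1-list regions and 42 of all 140 regions with 3 or 4 lists (23.0 to 38.0%) were on a start site. From 2500 to 4000 bp the share was 19.7% with 3 or 4 lists, 23.1% with 1 list and 26.2% with 2. In the same order it was 24.9%, 28.7% and 35.6% from 4000 to 6000 bp, and 13.4%, 16.0% and 20.2% from 1500 to 2500 bp. Up to 1500 bp it was 9.52%, 7.54% and 12.4%. The intervals for 3 or 4 lists and for 1 list overlap in every band. Against 2 lists they overlap in all bands but that from 4000 to 6000 bp. There the interval was 19.7 to 30.9% for 3 or 4 lists and 31.8 to 39.5% for 2.

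**Figure D3:**
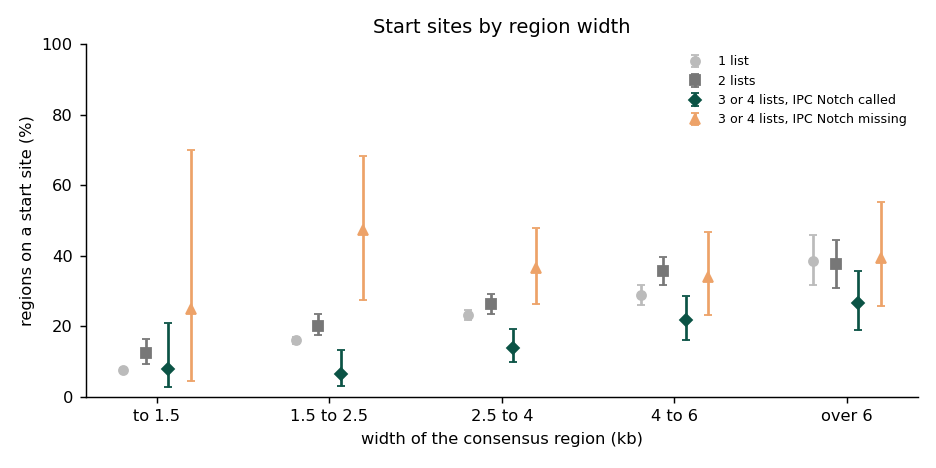
Share of regions on a start site (vertical axis, %) by width of the consensus region (horizontal axis, kb), with Wilson 95% intervals. In the band from 2500 to 4000 bp the regions with 3 or 4 lists lie at 36.5% where IPC Notch is missing and at 13.8% where it is called.

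Where a region held a start site, the peaks of its lists did not all reach it. RGC RBPJ peaks covered a start site in 160 of 170 such regions in which they were called, 94.1% (89.5 to 96.8), and RGC Notch peaks in 118 of 134, 88.1% (81.5 to 92.5). IPC RBPJ peaks did so in 99 of 142, 69.7% (61.7 to 76.7), and IPC Notch peaks in 62 of 102, 60.8% (51.1 to 69.7). IPC peaks also covered less of the region (above), and the part of this in the counts was not tested. In 92 of the 174 regions a start site lay in the bases common to all the lists, and of the 26 4-list regions on a start site this held for 7.

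The layout of peaks differed from one such region to the next. On Hes1, at chr16:30062417-30070043 the RGC RBPJ peak ran from -1.86 to 5.66 kb about the most upstream start site of Hes1 in the region, and the RGC Notch peak from -1.97 to 2.99 kb. The IPC RBPJ peak ran from -0.470 to 2.64 kb, and IPC Notch had 2 peaks, from 0.974 to 2.64 kb and from 3.19 to 5.32 kb. At Nrarp, chr2:25176345-25187169, the bases common to all lists ran from -3.13 to -1.71 kb, with the RGC RBPJ peak over the start site and to 6.41 kb beyond it. The RGC Notch peak ended at -0.100 kb and the IPC RBPJ peak at -1.71 kb, so neither reached the start site.

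At Fabp7, which encodes the brain lipid-binding protein typical of RGCs, all 4 lists crossed the start site, and the longest common range ran from -1.58 to -0.167 kb. At Emx2 the common range lay downstream, from 2.59 to 5.35 kb. At Gli3 no base was common to all 4 lists: the RGC Notch peak ended at 1.44 kb and both IPC peaks began at 1.51 kb, with the region joined by the RGC RBPJ peak that ended at 1.69 kb.

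**Figure D4:**
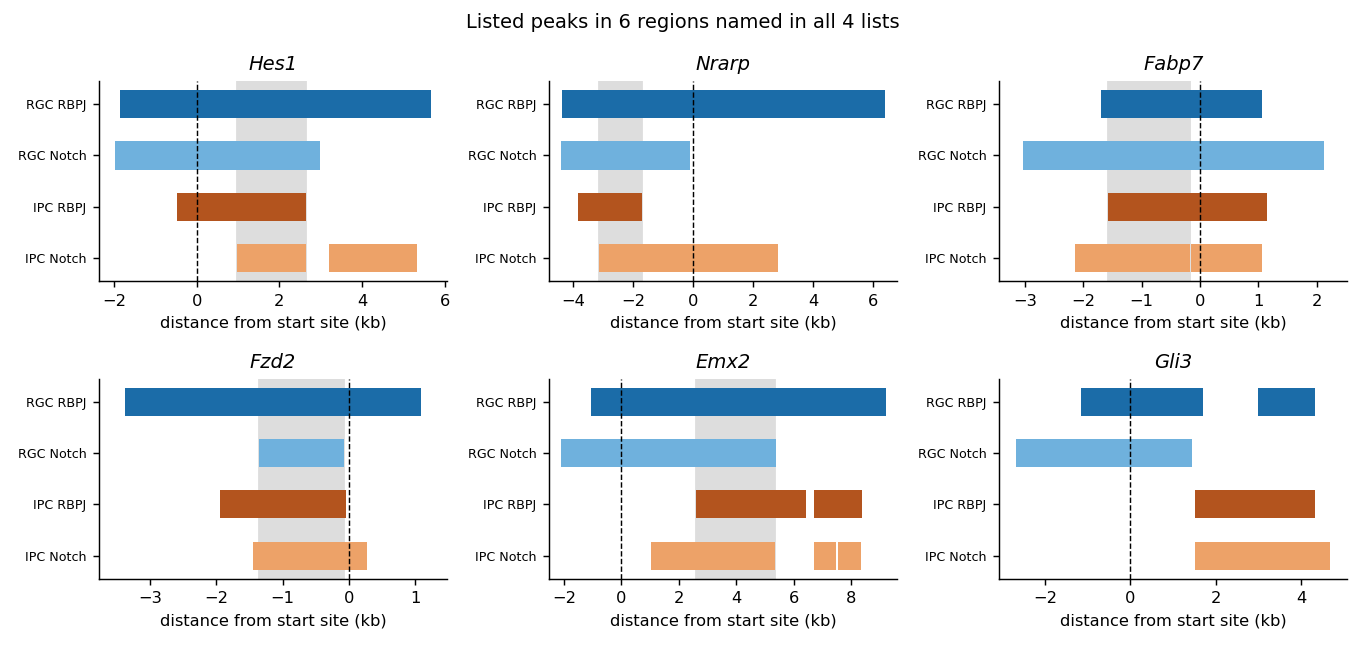
Extent of the peaks of each list (rows) by distance from the most upstream start site in the region (horizontal axis, kb; negative is upstream), for 6 of the 26 4-list regions on a start site; grey marks the longest range common to all 4 lists. At Gli3 no such range exists, the RGC Notch peak ending at 1.44 kb and the IPC peaks beginning at 1.51 kb.

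The other 4-list regions on a start site with long common ranges were at Cers6, a ceramide synthase gene (1700 bp), Tnrc18 (1462 bp), Nedd4l, a ubiquitin ligase gene (1455 bp), Tanc1, a scaffold gene (1364 bp) and Fzd2, a Wnt receptor gene (1288 bp). The widest region lacking IPC Notch, and of all 807, was 14692 bp on Pax6, the master regulator of cortical RGCs. Next in width without IPC Notch were the region at Zeb2, a transcriptional repressor gene, with 13792 bp and that near Lrrc8c with 11263 bp. Without RGC Notch they were near Prdm16, a regulator of RGCs, with 14265 bp, on Atxn1 with 9407 bp and near BC052040 with 9299 bp. Without IPC RBPJ they were on Notch1, with 14115 bp, near Elmsan1 with 12396 bp and near Rhbg with 11716 bp.

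The 807 regions had 642 nearest protein-coding genes, of which 532 had 1 region, 77 had 2 and 33 had 3 or more. Zfp608, a zinc finger gene, had 9 of the regions, which is 24.3% of its 37 consensus regions. Of these 9, 3 were named in all 4 lists, 3 lacked IPC Notch, 2 lacked RGC Notch and 1 lacked IPC RBPJ, and they reached from the start site to 647 kb from it. Epha4, an ephrin receptor, had 6 regions, of which 1 was in all 4 lists, at 885 kb, and the nearest was 7.64 kb from the start site. Pou3f3, a POU factor of progenitors, and Sorl1, a sorting receptor, each had 5. For Pou3f3, 2 of the 5 were in all 4 lists, at 883 and 805 kb upstream.

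All 4 regions of Irs2, an insulin signalling adaptor, lacked RGC Notch. Of the 4 near Bach2, a repressor, 3 lacked RGC Notch and 1 lacked IPC Notch. The 4 of Gli3 comprised 2 in all 4 lists, 1 lacking RGC Notch and 1 lacking IPC Notch, at 0, 250, 76.7 and 154 kb from the nearest start site. Mpped2, Prdm16, Rnaseh2b, Slc14a2, Tmem182 and Zbtb20 also had 4 each. The nearest gene is a label of position, and the 4 regions of Tmem182 lay 345 to 937 kb from its start, in the same stretch of chromosome 1 as those of Pou3f3.

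The regions lay in stretches with more consensus regions of any kind. A mean of 2.26 other consensus regions lay within 50 kb of them, against 1.38 for 1-list regions, and 18.2% (15.7 to 21.0) had none, against 33.6% (32.9 to 34.3). Within 50 kb between midpoints, another of the 807 was found beside 35 of the 141 4-list regions, 24.8% (18.4 to 32.6), and beside 97 of the 666 3-list regions, 14.6% (12.1 to 17.4), against 11.4% (10.3 to 12.7) of 2-list and 6.57% (6.21 to 6.95) of 1-list regions. With gaps of at most 100 kb, 222 of the 807 fell into 89 runs, and 27 runs held at least 3. The longest run held 6 regions over 309 kb and included Sorl1. Runs of 5, over 108 to 249 kb, included Tmem182 with Pou3f3, Rnaseh2b, Boc with Nepro, and Gm6133 with Slc14a2. By chromosome, 49 of 770 consensus regions of chromosome 16 were among the 807, 6.36% (4.85 to 8.31), and 43 of 759 of chromosome 18, 5.67% (4.23 to 7.54), against 18 of 752 of chromosome 15, 2.39% (1.52 to 3.75). The X chromosome had 10 of 407.

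Genes of the Notch pathway were among the nearest genes, but not with most of their regions. A list of Hes and Hey repressors also held Helt, Bhlhe40 and Bhlhe41. Of the 32 consensus regions nearest to its genes, 7 were among the 807, 21.9% (11.0 to 38.8), beside 3.88% of all regions. They were at Hes1, Hes5, Hey1 and Bhlhe40. The 4-list regions were the one on Hes1, one 49.5 kb upstream of Hey1 and one 3.29 kb downstream of the start of Bhlhe40. A further region 179 kb upstream of Hes1 lacked RGC Notch. In the list of Notch feedback genes and known cortical targets, which overlaps the former, 12 of 93 regions were among the 807, 12.9% (7.54 to 21.2), of which 5 were in all 4 lists, including those on Nrarp and Fabp7.

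Among receptors and ligands, 2 of 39 regions were among the 807, both at Notch1, both lacking IPC RBPJ. Of 52 regions of Notch modulators and cofactors, 4 were, among them 2 at Maml3, a Mastermind coactivator, and 1 at Numb, an inhibitor of Notch, with 3 of the 4 lacking IPC RBPJ. Plasmids of the study carry Hes5 promoter, Tuba1a promoter, Notch1 intracellular and human RBPJ sequence. Of the 22 consensus regions at these 4 genes, 4 were among the 807, 2 each at Hes5 and Notch1, and a contribution of plasmid DNA to them was not tested. The consensus region on the start site of Hes5 itself was named in 2 lists.

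Genes of RGCs made up a larger group. Of 413 regions of RGC transcription factors, 40 were among the 807, 9.69% (7.19 to 12.9), at 21 of the 37 genes, with 13 lacking RGC Notch, 11 lacking IPC Notch and 10 in all 4 lists. They included the regions on Emx2 and Gli3, 1 on Nfia lacking RGC Notch with 3565 bp in common, and 2 near Sox2, neither with a common base. Of 136 regions of RGC markers, 22 were among the 807, 16.2% (10.9 to 23.3), including 3 near Ptn, a growth factor, and 3 near Ptprz1, a receptor phosphatase. Of 70 regions of IPC genes, 3 were, 4.29% (1.47 to 11.9), near Gadd45g, Neurog2 and Pou3f2. Of 187 regions of projection neuron genes, 14 were, 7.49% (4.51 to 12.2), including 3 near Mef2c, and 6 of the 14 lacked IPC RBPJ.

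In signalling pathways the counts were 11 of 89 for Hedgehog, 12.4% (7.04 to 20.8), at Gli3, Boc, Gas1 and Gli2, where 4 of the 11 lacked RGC Notch and 4 lacked IPC RBPJ. Over all consensus regions the share was 3.88%. The counts were 6 of 98 for Wnt, 6.12% (2.84 to 12.7), and 4 of 60 for FGF, 6.67% (2.62 to 15.9). For BMP and TGF-beta they were 2 of 78, 2.56% (0.706 to 8.88), and for Eph receptors and ephrins 11 of 153, 7.19% (4.06 to 12.4). The intervals for Wnt, FGF and BMP and TGF-beta include 3.88%. Groucho and Id proteins had 6 of 84, 7.14% (3.31 to 14.7), an interval that also includes 3.88%. Of these, 2 were in all 4 lists, at Tle1 and Tle3, corepressors used by Hes proteins. Cell cycle regulators had 2 of 63, 3.17% (0.875 to 10.9), both at Mycn. The lists of interneuron and of non-neural marker genes had 1 of 35 and 1 of 23 regions, near Gsx2 and near Dcn. Peak positions do not measure expression, so the cell types could not be checked by their markers here. The lists were chosen by known function with earlier results of these data in view, some share genes, and their counts were not tested.

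The RBPJ word TTCCCA, counted on both strands, had a similar density in these regions and in others. It occurred 1.17 times per kb in the 807 (95% Poisson interval 1.13 to 1.21), 1.16 times in 1-list regions (1.15 to 1.17), 1.20 in 2-list regions, 1.18 in 3-list and 1.11 (1.04 to 1.20) in 4-list regions. In windows of 2000 bp it was present in 91.7% of the 807 and in 88.9% of all consensus regions. Within the regions it was not evenly spread. In the bases common to all lists there were 1.35 words per kb (1.28 to 1.43), and in the rest of the same 756 regions 1.09 (1.05 to 1.14), with GC contents of 46.3% and 45.5%. In 4-list regions alone the densities were 1.34 (1.15 to 1.54) and 1.08 (0.980 to 1.18). The common bases of 2-list regions held 1.28 (1.25 to 1.31), an interval that overlaps that of the 807. In the 250 bp on either side of the middle of the common range, left and then right along the reference, 3-list regions had 1.35 (1.17 to 1.54) and 1.56 (1.37 to 1.77) words per kb. The 4-list regions had 1.54 (1.14 to 2.04) and 1.39 (1.01 to 1.86), and the 1-list regions, where the common range is the whole peak, had 1.18 (1.15 to 1.21) and 1.19 (1.16 to 1.22). Of these bins, the right one of 3-list regions was the highest of its profile and alone did not overlap the 1-list interval.

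**Figure D5:**
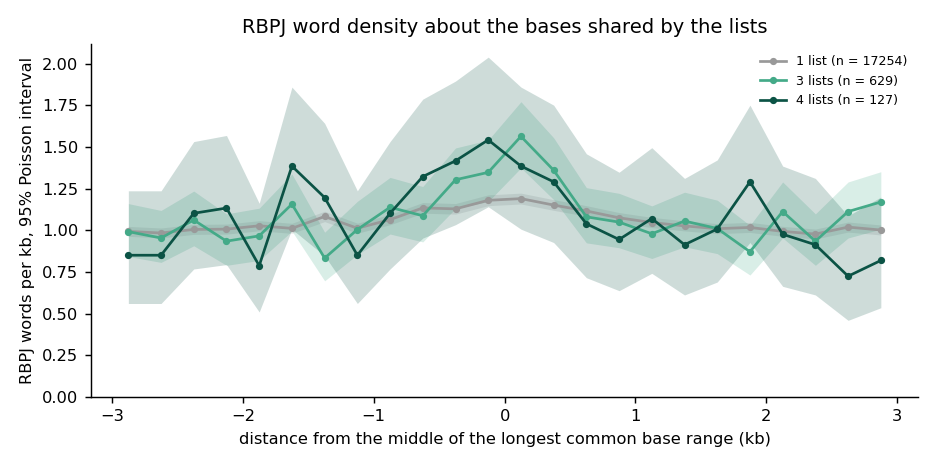
Density of the RBPJ word (vertical axis, words per kb, with 95% Poisson intervals shaded) by distance from the middle of the longest range common to the lists (horizontal axis, kb, in bins of 250 bp), for regions with 1, 3 and 4 lists. On the left and right of the middle the 3-list regions lie at 1.35 and 1.56 per kb and the 1-list regions at 1.18 and 1.19, with overlapping intervals on the left.

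By missing list, the density in the common bases was 1.47 (1.32 to 1.62) without RGC Notch, 1.42 (1.28 to 1.58) without IPC Notch and 1.23 (1.11 to 1.36) without IPC RBPJ, so that all 3 intervals overlap. The longer word TTCCCAC, which is contained in these counts, occurred 0.264 times per kb in the 807 and 0.266 in 1-list regions. The homeodomain word TAATTA was denser in the 807, at 0.421 per kb (0.400 to 0.444), than in 1-list regions, at 0.348 (0.342 to 0.354), and stood at 0.370 in 2-list regions. The median GC content was 45.1% in the 807 and 45.2% in 1-list regions. These are densities of words in sequence, in regions of different widths, and intervals cover counting error only.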

How the data were processed

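Targeted DamID reads of 14 fusion and 9 Dam-only samples lie behind the 4 peak lists. Per the study's methods, the authors trimmed reads, aligned them to mm10 and ran MACS2 in broad mode on each fusion with each Dam-only sample. They filtered the peaks at a stringent FDR cut and retained those found in every such pairing. They merged the lists into consensus regions and gave each a k-means cluster. The deposited values used here are positions in bp, with constant score columns and 0 columns of single samples, so depth and replicate spread cannot be read from these peak files.

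Here, lists were read from the names of the consensus rows and checked by direct overlap. Start sites and genes were those of protein-coding transcripts in GENCODE for GRCm38, features were taken at the midpoint and sequence from GRCm38.p6. Distances, common bases and words were checked on simulated data (500 of 500 matched for each). The tools were matplotlib 3.10.9, scipy 1.17.1, pandas 2.3.3, numpy 2.4.6 and Python 3.11.15. The members and the 18 gene lists were chosen with earlier results of these data known. Genes were named if they had the most members (12 genes, ties alphabetical), were in a gene list, or were nearest to the 10 longest common ranges of 4-list regions, to the 10 longest on a start site or to the 3 widest regions per missing list, and a few that met this rule are not reported here. Mitochondrial regions were left out. No test was made, since regions are not replicates.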

Additional observations from a re-analysis of the deposited data

Results flagged for a closer look

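The mitochondrial genome, outside the comparisons above, held 2 consensus regions, and both were named in 3 lists, with RGC Notch missing. They were 6614 and 5498 bp wide, and the lists held 3 RGC RBPJ, 5 IPC RBPJ and 4 IPC Notch peaks there. They drew attention because no nuclear comparison used them, and their origin was not tested.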

How the results depend on the processing

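Of 29 alternatives to 10 results, 21 left the value within its interval or, for counts, within 1.5 times, and 8 moved it. The share of regions with a base common to all their lists was 82.3% when at least 500 bp were required. The share on a start site was 15.6% by midpoint within 1 kb, 11.4% by the common bases and 29.1% with all annotated genes. The median distance fell to 8211 bp with all annotated genes. The median width was 1121 bp for the common bases, a narrower range by construction. TTCCCA density was 1.35 per kb in the common bases, and 0.264 per kb for the longer word TTCCCAC. With list peaks of at least 1000 bp, 566 regions remained, and 770 had a base common to at least 3 lists. Windows of 2000 bp, bands of width and the split by common bases inside and outside were added after seeing the data. No replicate could be left out and no paired analysis was possible because the peak files used here hold pooled positions with no value of a single sample. Depth cannot be read from them, and intervals cover counting error over regions only.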
